A study of Mus musculus with 6 samples.

Results

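P2rx7, Art2b and 6 further genes that make, sense or break down nucleotides outside the cell (P2rx4, Cd38, Entpd1, Nt5e, Adora2a and Panx1) were followed in mouse CD8+ T cells. All 8 were among the 14481 genes of the counts table, and all 8 passed the filter on low counts that left 14319 genes. P2rx7 and Art2b had been noted as higher in 1 of the 2 groups compared here, and the other 6 were added for their place in the same pathway. The differences of the members between the groups are therefore given as a description, with no test. The cells, killer lymphocytes of wild-type mice, had been sorted and then activated in RPMI containing 10% serum. Activation used plates coated with an antibody to CD3 (1 µg/ml), soluble antibody to CD28 at 1 µg/ml, and 0.1 µg/ml of interleukin 2. Conditioned medium (CM) of astrospheres was added after day 1, and RNA was taken 2 days later, at day 3. The CM came from astrospheres named pSTAT3- or pSTAT3+ after the phosphorylated form of the transcription factor STAT3, and the groups are called STAT3- CM and STAT3+ CM, with 3 libraries each. Cells without CM were not analysed here, and the labels do not tell whether each replicate had its own mouse or culture, so the spread between libraries may be technical.

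ATP and NAD that leave a stressed or activated cell act as signals at the surface of T cells. P2X7 and P2X4 are ion channels opened by ATP, and the pannexin 1 channel (Panx1) lets ATP out. In mouse T cells the surface enzyme ART2.2, product of Art2b, uses NAD to attach ADP-ribose to P2X7 and so opens the channel without free ATP. CD38 removes the NAD that this enzyme needs. CD39 (Entpd1) cuts ATP and ADP to AMP, CD73 (Nt5e) turns AMP into adenosine, and the adenosine receptor encoded by Adora2a senses it, raises cyclic AMP and dampens the T cell.

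The stretches just upstream of the annotated starts of P2rx7 and Art2b are shown because these are the members that were chosen for standing higher in STAT3+ CM. RefSeq on GRCm38.p6 has 2 starts for P2rx7 and 1 for Art2b, and mouse T cells are known for a P2X7 variant that begins at an alternative first exon. Each line holds the 250 bases before a start, 5′ to 3′ on the gene's strand, with motif matches in capitals.
P2rx7 first start, chr5:122643677-122643926, plus strand: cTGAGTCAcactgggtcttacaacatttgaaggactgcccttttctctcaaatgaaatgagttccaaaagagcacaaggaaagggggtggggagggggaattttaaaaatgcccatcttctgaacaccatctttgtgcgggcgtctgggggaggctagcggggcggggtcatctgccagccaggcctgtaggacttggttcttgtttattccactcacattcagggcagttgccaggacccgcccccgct
P2rx7 second start, chr5:122650133-122650382, plus strand: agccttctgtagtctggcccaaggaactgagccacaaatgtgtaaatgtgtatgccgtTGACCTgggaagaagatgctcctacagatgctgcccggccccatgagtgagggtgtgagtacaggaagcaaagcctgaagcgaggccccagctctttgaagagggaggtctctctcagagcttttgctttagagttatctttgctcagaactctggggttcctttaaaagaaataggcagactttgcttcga
Art2b, chr7:101581162-101581411, minus strand: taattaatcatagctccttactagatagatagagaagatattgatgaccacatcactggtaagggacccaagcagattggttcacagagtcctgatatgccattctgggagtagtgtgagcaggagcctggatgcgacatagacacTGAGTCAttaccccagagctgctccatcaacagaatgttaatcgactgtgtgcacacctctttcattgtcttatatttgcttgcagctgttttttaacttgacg
Both strands were searched for 5 motifs: TTCNNNGAA (STAT), AGGTCA (nuclear receptor half-site), TGANTCA (AP-1), TGACGTCA (cyclic AMP response element) and CCGGAA (ETS). The capitals mark TGAGTCA, an AP-1 match, which begins 249 bases before the first P2rx7 start and 104 bases before the Art2b start, and TGACCT, the half-site on the other strand, 192 bases before the second P2rx7 start. Of 32851 mouse windows of this length, 6.75% held the AP-1 letters, 14.02% the half-site and 7.02% the STAT letters. No TTCNNNGAA stood in any of the 9 windows of the 7 members with an entry. Windows of P2rx7 (6 and 4 CpG) and Art2b (3) were near or below the median of 6 CpG over all windows, as was that of Cd38 (1). Those of P2rx4 (13), Panx1 (17), Nt5e (21) and Entpd1 (18 and 8) were above it. Counts per gene do not tell which start was used. The GENCODE M21 annotation also has a protein-coding Art2b transcript that starts at chr7:101585600, and the stretch before it was not searched.

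P2rx7 was scarce, and every STAT3+ CM library had more of it than every STAT3- CM library. STAT3- CM libraries had 53, 77 and 48 reads of P2rx7, and STAT3+ CM libraries 192, 135 and 144. As CPM, reads per 1000000 of the library after TMM scaling, the STAT3- CM levels were 1.17, 1.64 and 1.04. In STAT3+ CM they were 4.23, 3.24 and 2.60 CPM. The lowest STAT3+ CM library thus lay above the highest STAT3- CM library, and the group means were 1.28 ± 0.315 and 3.36 ± 0.821 CPM (SD, n = 3), a ratio of 2.62. The log2 fold change, STAT3+ CM minus STAT3- CM, was 1.37 (SE 0.29), rank 10 from the top of the 14319 genes tested. P2rx7 and Art2b were 2 of the 15 genes (0.105% of those tested) that DESeq2 called higher, while edgeR's quasi-likelihood test called 0 of all genes (0%) in either direction. Both genes were chosen for being higher in this contrast, so nothing is read from that count.

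P2rx4, the next gene on chromosome 5 and the channel most often paired with P2X7, showed no such step. Its levels were 10.9, 10.7 and 13.2 CPM in STAT3- CM and 11.9, 11.2 and 12.5 CPM in STAT3+ CM. The groups lay inside each other, with a log2 fold change of 0.04 (SE 0.16). The ratio of P2rx7 reads to P2rx4 reads, which no scaling of libraries can change, was 0.107, 0.153 and 0.0789 in the libraries of STAT3- CM and 0.356, 0.288 and 0.208 in those of STAT3+ CM. The P2rx7 side of the ratio carried that difference, since the P2rx4 levels of the groups overlapped. The ratio reuses the P2rx7 values on which the gene was chosen, so nothing further is read from it. Of the other P2X genes listed, P2rx5 (0.507 ± 0.194 and 0.214 ± 0.138 CPM) and P2rx3 (0.418 ± 0.173 and 0.236 ± 0.0388 CPM, SD, n = 3) were near the detection limit. Their log2 fold changes were -1.17 (SE 0.49) and -0.80 (SE 0.42), with an adjusted p of 0.989 for each by edgeR. In both, every STAT3+ CM library lay below the STAT3- CM libraries, but by very little. For P2rx5 the highest STAT3+ CM library had 0.361 CPM and the lowest STAT3- CM library 0.368 CPM. For P2rx3 these were 0.264 and 0.265 CPM. Groups apart with STAT3+ CM lower were found in 4.18% of all genes tested.

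**Figure D1:**
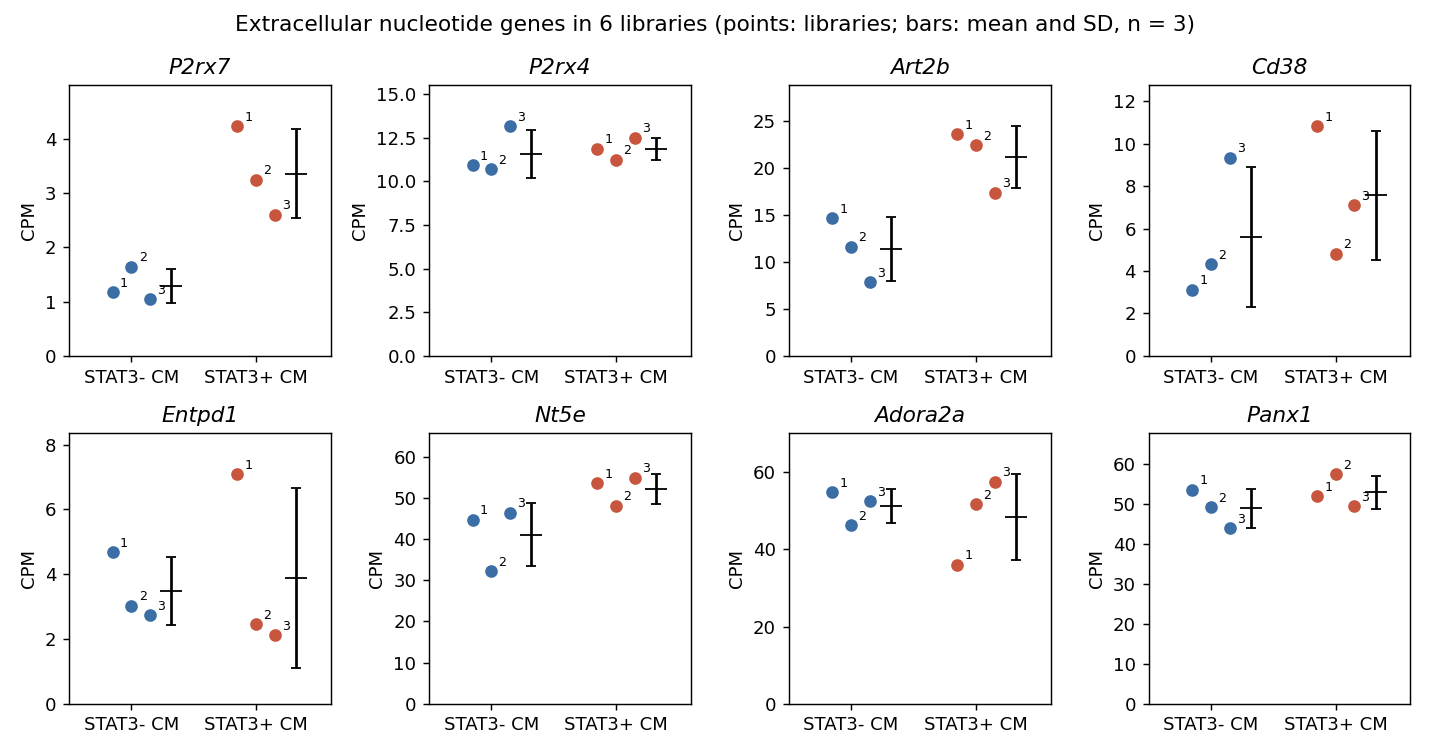
CPM of the 8 members (linear axes from 0) in the STAT3- CM and STAT3+ CM libraries, 1 point per library with its replicate number, and the mean with SD (n = 3) beside each group. P2rx7, Art2b and Nt5e have no overlap between the groups after TMM scaling, which for Nt5e does not hold by library totals alone. Entpd1 is set by STAT3+ CM replicate 1, and Cd38 spreads widely in both groups.

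Art2b followed P2rx7 in direction. Its levels were 14.7, 11.6 and 7.86 CPM in STAT3- CM and 23.6, 22.4 and 17.4 CPM in STAT3+ CM. Again the groups did not overlap, STAT3- CM replicate 3 being the lowest for both genes and STAT3+ CM replicate 1 the highest. The means were 11.4 ± 3.42 and 21.1 ± 3.31 CPM (SD, n = 3), with a log2 fold change of 0.89 (SE 0.22), rank 58 from the top. Art2b has a close relative, Art2a, a pseudogene in the reference strain that was not analysed here. Of the 50-base words in Art2b transcripts, 5.02% also occurred in Art2a-ps, so reads over that part could have been assigned to either gene. No member shared exon bases with a gene of the opposite strand in GENCODE M21, so the unstated strand setting touched none of them by annotation.

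Cd38, whose product destroys the substrate of ART2.2, differed more between replicates than between groups. Its levels were 3.11, 4.32 and 9.33 CPM in STAT3- CM and 10.8, 4.80 and 7.10 CPM in STAT3+ CM. STAT3- CM replicate 3 stood above 2 of the 3 STAT3+ CM libraries, and the log2 fold change was 0.44 (SE 0.40). Without STAT3- CM replicate 3 it was 1.03, and without STAT3+ CM replicate 1 it was 0.10. The 3 libraries with the most Cd38 were those with positive scores on the first principal component of all genes (39.6 for STAT3- CM replicate 3, 16.3 and 6.12 for STAT3+ CM replicates 1 and 3). The other 3 scored -23.9, -16.4 and -21.8. Whether that component has a part in the Cd38 values was not tested.

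Other NAD enzymes of the surface were then set beside Cd38. Enpp1, a phosphodiesterase that also splits NAD and ATP, stood at 3.11, 4.60 and 10.3 CPM in STAT3- CM and 11.4, 5.40 and 6.52 CPM in STAT3+ CM. Library by library this was close to Cd38: the root mean square difference of their centred log2 CPM was 0.097, and Enpp1 ranked 2 of 10812 genes by likeness to Cd38. Bst1, the neighbour of Cd38 on chromosome 5 and the other ADP-ribosyl cyclase, stood at 0.640, 1.75 and 9.61 CPM in STAT3- CM and 9.34, 1.66 and 3.02 CPM in STAT3+ CM. Its high libraries were the same pair, STAT3- CM replicate 3 and STAT3+ CM replicate 1, but its swings were wider, and it ranked only 9171 by that measure. This comparison with Cd38 was chosen after the values were seen. Art4, a relative of Art2b, stood at 3.96 ± 0.126 and 5.40 ± 1.88 CPM (SD, n = 3), and the log2 difference was 0.44 (SE 0.26; adjusted p = 0.989 by edgeR). Neither Art4 nor Bst1, the tested genes of this list outside the members, passed the test.

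**Figure D2:**
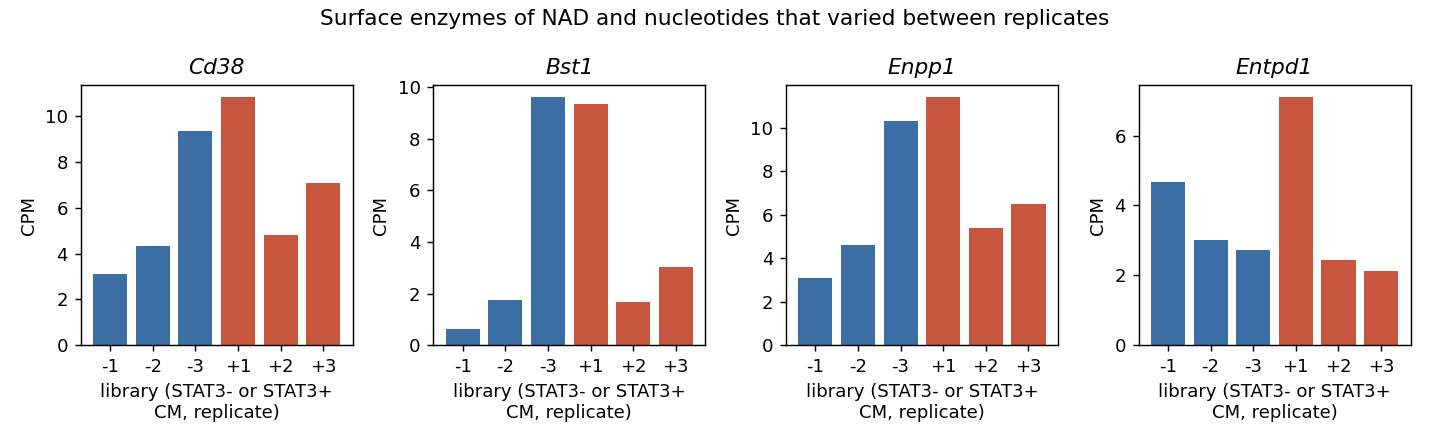
CPM (linear axes from 0) of Cd38, Bst1, Enpp1 and Entpd1 in each library, blue for STAT3- CM and red for STAT3+ CM, 1 bar per library. Cd38, Bst1 and Enpp1 share high values in STAT3- CM replicate 3 and STAT3+ CM replicate 1, while Entpd1 is high in STAT3+ CM replicate 1 only.

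The pair of enzymes that make adenosine from ATP did not move as one. Entpd1, the first step, stood at 4.68, 3.02 and 2.73 CPM in STAT3- CM and 7.09, 2.45 and 2.11 CPM in STAT3+ CM. One library, STAT3+ CM replicate 1, was the highest of all 6, and the other 2 of its group were the lowest of all 6. The log2 fold change was 0.15 (SE 0.44), and without STAT3+ CM replicate 1 it turned to -0.61. Nt5e, the second step, stood at 44.8, 32.3 and 46.4 CPM in STAT3- CM and 53.6, 48.2 and 55.0 CPM in STAT3+ CM. Here the groups did not overlap after TMM scaling, though STAT3+ CM replicate 2 and STAT3- CM replicate 3 were close. By library totals alone the groups did overlap. STAT3- CM replicate 3 had 2144 reads of a total of 43551518, and STAT3+ CM replicate 2 had 2005 of 43346089. The means were 41.2 ± 7.72 and 52.3 ± 3.62 CPM (SD, n = 3), with a log2 fold change of 0.35 (SE 0.15), which was 0.19 without STAT3- CM replicate 2, the lowest library. With P2rx7 and Art2b, Nt5e made 3 of 8 members with all STAT3+ CM libraries above all STAT3- CM libraries after TMM scaling. This was a pattern of 3.78% of all genes tested. Since P2rx7 and Art2b, 2 of the 3, were chosen on this contrast, nothing is read from the count.

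Among the other ectonucleotidases, Enpp4 had the smallest p. This surface hydrolase stood at 27.9, 29.8 and 28.6 CPM in STAT3- CM and 41.2, 37.9 and 39.7 CPM in STAT3+ CM. The groups were apart, but the gene did not pass the test (log2 fold change of 0.46 with SE 0.12, unadjusted p = 0.0027, adjusted p = 0.702 by edgeR). Alpl, a phosphatase that can also release adenosine, stood at 1.08 ± 0.0780 and 1.62 ± 0.643 CPM (SD, n = 3), with a log2 fold change of 0.59 (SE 0.34). Acpp, an acid phosphatase that can act on AMP, had -0.13 (SE 0.26). Of the 4 tested genes of this list outside the members, 0 passed in either direction.

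Adora2a, the receptor at the end of the chain, had overlapping groups. Its levels were 54.8, 46.2 and 52.4 CPM in STAT3- CM and 36.0, 51.7 and 57.5 CPM in STAT3+ CM. STAT3+ CM replicate 1 was the lowest of all 6 libraries, and replicate 3 of the same group the highest. The log2 fold change was -0.08 (SE 0.17), and 0.10 without STAT3+ CM replicate 1. Read against Nt5e in the same library, the ratio of Adora2a reads to Nt5e reads was 1.22, 1.43 and 1.13 in the libraries of STAT3- CM and 0.672, 1.07 and 1.05 in those of STAT3+ CM. All 3 STAT3+ CM ratios were lower, by little in replicates 2 and 3; it was 1 of 5 ratios computed and was picked after they were seen. Adora2b, the low-affinity adenosine receptor, stood at 3.43 ± 1.13 and 3.44 ± 0.260 CPM (SD, n = 3).

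Genes that handle adenosine inside or outside the cell, and the cyclic AMP genes downstream of its receptor, included none that passed edgeR's test at an adjusted p of 0.05. Ada, adenosine deaminase, which removes adenosine, stood at 15.6, 17.5 and 12.9 CPM in STAT3- CM and 28.4, 20.4 and 17.5 CPM in STAT3+ CM. STAT3+ CM replicate 3 lay at the level of STAT3- CM replicate 2, and the log2 fold change was 0.52 (SE 0.20; adjusted p = 0.989 in edgeR's test). Hprt, of purine salvage, had 0.28 (SE 0.14), and Slc29a3, a nucleoside transporter, -0.36 (SE 0.18). Of 19 genes for adenosine uptake and metabolism 15 lay above 0; the median was 0.11 and 0 passed. In the cyclic AMP list 4 of 17 were positive, with a median of -0.07, and 0 passed; its smallest p-values were those of Adcy4 (0.85, SE 0.41, at 0.174 ± 0.0445 and 0.308 ± 0.0807 CPM, SD, n = 3), Creb1 (-0.19, SE 0.12) and Pde7a (-0.16, SE 0.15). Of all genes tested, 50.2% were positive, with a median of 0.00076.

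Panx1 was among the steadiest members. Its levels were 53.6, 49.2 and 44.0 CPM in STAT3- CM and 51.9, 57.5 and 49.4 CPM in STAT3+ CM. The groups overlapped, with a log2 fold change of 0.11 (SE 0.13). The other genes linked to nucleotide release had 5 positive and 5 negative values of 10, with a median of 0.0059, and 0 passed; Lrrc8d (-0.23, SE 0.16), a volume-regulated channel subunit, Calhm6 (0.52, SE 0.42) and Ank (-0.21, SE 0.20) came first by p. Slc17a9, the vesicular nucleotide transporter, had 0.04 (SE 0.17).

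Genes named as P2Y receptors, which are coupled to G proteins, were present for 6 of 9 listed. The list goes by name, and not every receptor in it need respond to nucleotides. P2ry10, a receptor of lymphocytes, stood at 134 ± 41.3 and 142 ± 53.8 CPM (SD, n = 3), and P2ry14 (-0.53, SE 0.34), P2ry1 (-0.38, SE 0.32) and P2ry10b (-0.22, SE 0.22) had the smallest p-values, with 0 of 6 past the threshold. The rest, P2ry2 (0.04, SE 0.41) and P2ry12 (0.02, SE 0.40), were near 1 CPM. Genes described downstream of P2X7 in immune cells had 3 of 11 values positive, a median of -0.13, and 0 passed. Casp1, the inflammasome protease, had -0.34 (SE 0.17), and Ano6, a lipid scramblase, -0.18 (SE 0.13). The NAD synthesis list, which also holds the NAD kinases Nadk and Nadk2, had 3 of 10 positive, a median of -0.06, and 0 passed. Its smallest p-values were those of Nmnat2 (-0.37, SE 0.26), Naprt (-0.38, SE 0.33) and Nadk2 (0.11, SE 0.12). The 3 intracellular NTPDases, which are relatives of Entpd1 on internal membranes, had a median near 0 and 0 passed; Entpd7 had -0.17 (SE 0.21), Entpd6 0.07 (SE 0.13) and Entpd5 a value of -0.0003.

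Over all lists together, 85 genes besides the members were tested, 0 passed by edgeR and 0 by DESeq2, against 0% and 0.335% of all genes. At an unadjusted p under 0.05 by edgeR stood 3 of the 85 (P2rx5, Enpp4 and Ada), where 3.64% of all genes did. Positive values were found in 39 of 85.

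**Figure D3:**
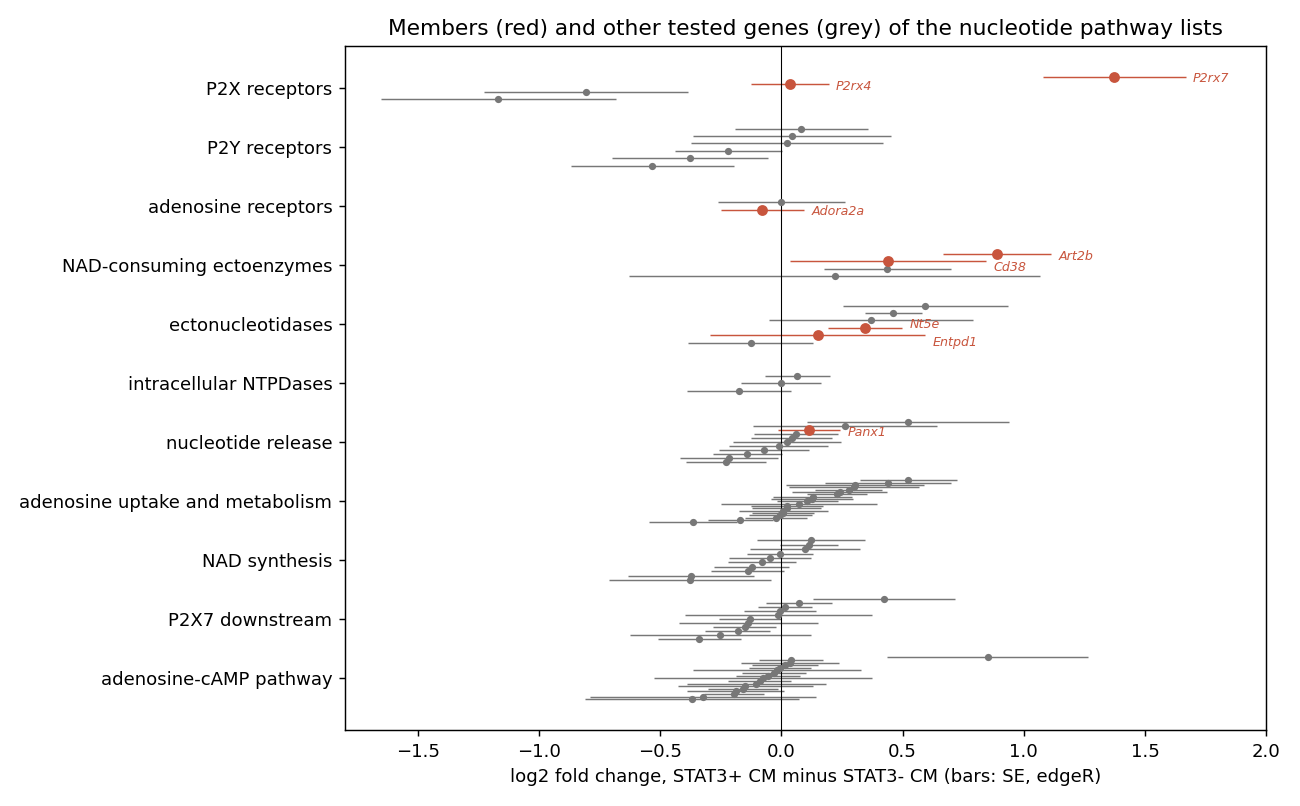
Log2 fold change, STAT3+ CM minus STAT3- CM, of each tested gene by pathway list, with the SE from edgeR as bars; members in red with their names, other genes in grey. P2rx7 (1.37) and Art2b (0.89) are the members farthest to the right, and most other genes lie around 0.

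Divided by exon length, the members spanned a wide range, with the receptor for adenosine at the top and P2rx7 at the bottom. As CPM divided by exon length in kilobases (RPKM, exon lengths from GENCODE M21), the STAT3- CM order was Adora2a (16.7 ± 1.44), Panx1 (8.11 ± 0.799), Nt5e (4.79 ± 0.898), Art2b (4.03 ± 1.21), P2rx4 (1.65 ± 0.195), Cd38 (1.44 ± 0.848), Entpd1 (0.623 ± 0.189) and P2rx7 (0.215 ± 0.0528, SD, n = 3). The libraries of Nt5e and Art2b overlapped, as did those of P2rx4 and Cd38 and those of Cd38 and Entpd1. In STAT3+ CM the order by mean RPKM was Adora2a (15.8 ± 3.63), Panx1 (8.78 ± 0.688), Art2b (7.48 ± 1.17), Nt5e (6.08 ± 0.421), Cd38 (1.95 ± 0.780), P2rx4 (1.69 ± 0.0906), Entpd1 (0.696 ± 0.499) and P2rx7 (0.562 ± 0.137, SD, n = 3). There Panx1 and Art2b, Art2b and Nt5e, Cd38 and P2rx4, Cd38 and Entpd1, and Entpd1 and P2rx7 overlapped. Over both groups P2rx7 was at percentile 16.0 and Adora2a at percentile 76.5 of 13943 genes by RPKM.

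The spread between replicates, which did not enter the choice of members, set Cd38 and Entpd1 apart from the other 6. The pooled within-group SD of log2 CPM was 0.70 for Cd38 and 0.73 for Entpd1, above 94.0% and 93.2% of the 500 genes nearest in mean level. Art2b had 0.36, above 85.6% of its like genes, and Adora2a 0.27, above 80.8%. Nt5e (0.22, percentile 69.6) and P2rx7 (0.34, percentile 48.2) were nearer the middle, the latter at a level where the median gene had 0.35. P2rx4 (0.13, percentile 16.4) and Panx1 (0.13, percentile 33.2) varied least. From the lowest to the highest library of a group, levels in CPM ran over 3.00-fold in STAT3- CM and 2.25-fold in STAT3+ CM for Cd38, and over 1.72-fold and 3.36-fold for Entpd1. For P2rx7 these ranges were 1.58-fold and 1.63-fold, for Art2b 1.87-fold and 1.36-fold, for P2rx4 1.23-fold and 1.11-fold, and for Panx1 1.22-fold and 1.16-fold.

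**Figure D4:**
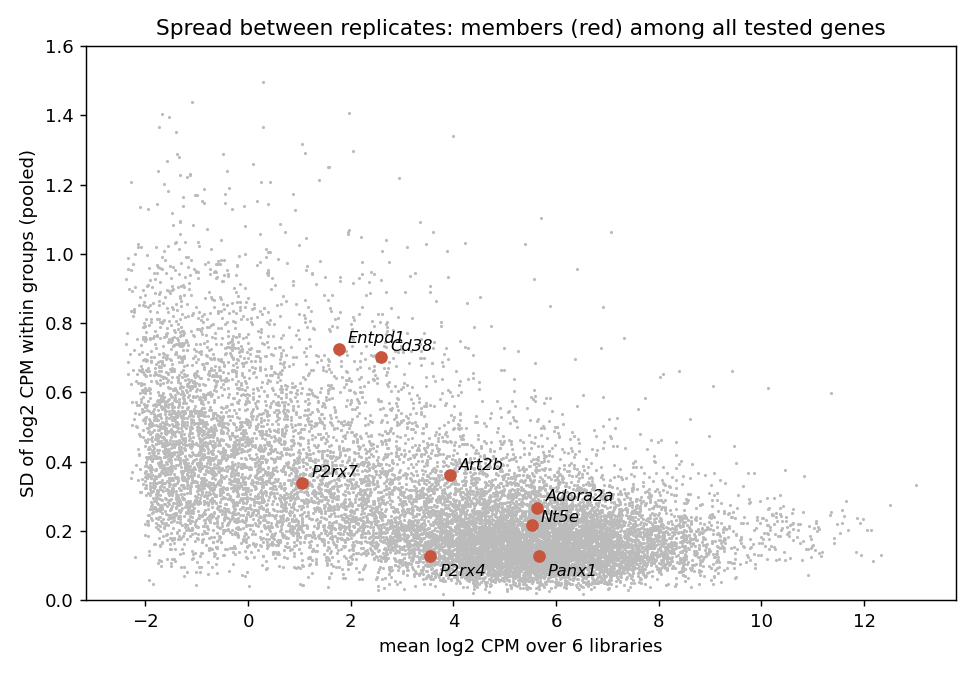
Pooled within-group SD of log2 CPM against mean log2 CPM for all tested genes (grey) and the members (red); 6 genes above the axis limit are not drawn. Cd38 (0.70) and Entpd1 (0.73) lie above most genes of their level, and P2rx4 and Panx1 (0.13 each) lie low.

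The genes with the library pattern most like P2rx7 were sought among 10812 genes by the root mean square difference of centred log2 CPM over the 6 libraries. The 8 nearest were the histone gene H4c4 (0.30), Acp5, an acid phosphatase (0.34), the cytokine gene Lif (0.35), Art2b (0.35), the histone gene H2bc11 (0.36), Arrdc4 (0.36), Cracdl (0.37) and Egln3, an oxygen-sensing hydroxylase (0.38). Art2b was therefore number 4 in the list of P2rx7. In the list of Art2b, P2rx7 was number 59, and the 5 nearest were Cnga1 (0.14), H2-T24, an MHC class I-like gene (0.18), Acoxl (0.20), H2bc11 (0.21) and Acp5 (0.22). Acp5 and H2bc11 stood in both lists. Acp5 had 32.8, 29.8 and 28.1 CPM in STAT3- CM and 63.6, 61.3 and 39.9 CPM in STAT3+ CM, apart in the same direction as P2rx7. Likeness over 6 libraries is dominated by the step between the groups on which P2rx7 and Art2b were chosen.

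**Figure D5:**
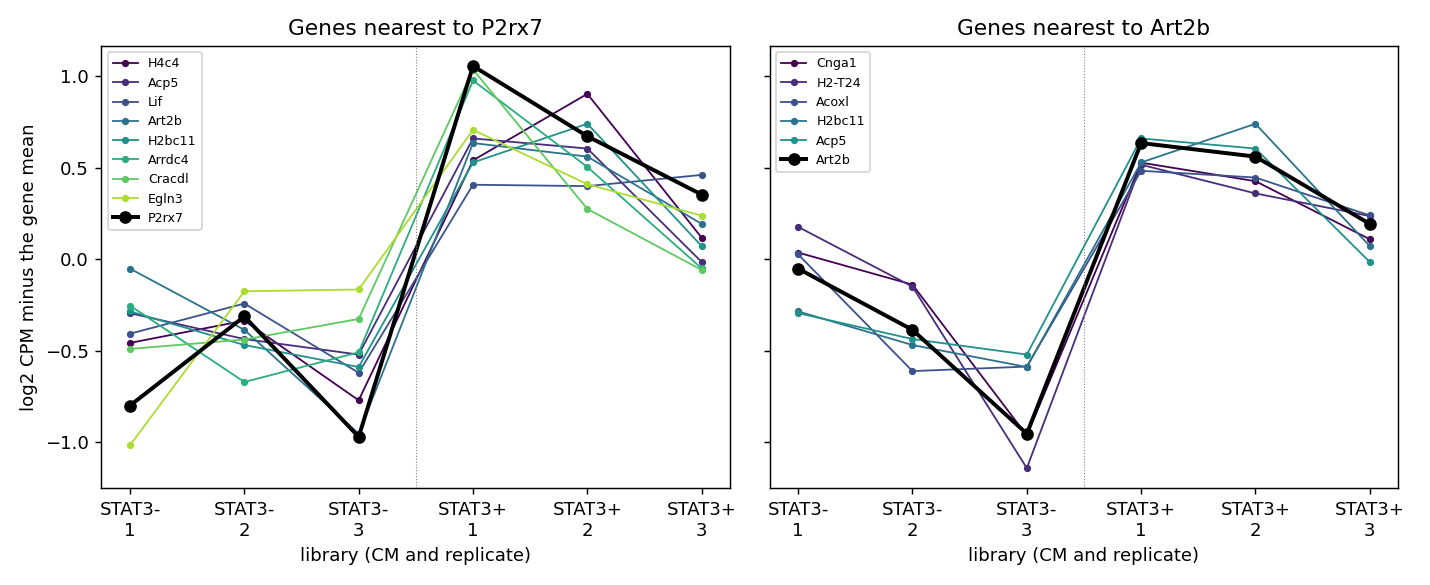
Log2 CPM minus each gene's mean over the 6 libraries, for P2rx7 (left) and Art2b (right) in black and the genes nearest to each in colour. The values are drawn without the prior count used for the distances. Lines only join the values of 1 gene, as replicates have no order. In STAT3+ CM replicate 1, P2rx7 lies highest, and in STAT3- CM replicate 3 both P2rx7 and Art2b are at their lowest.

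Genes next to P2rx7 and Art2b on their chromosomes did not share their step. Around P2rx7, the calcium pump gene Atp2a2 had a log2 fold change of -0.08 (SE 0.15), Ift81 -0.01 (SE 0.34), P2rx4 0.04 and the kinase gene Camkk2 -0.09 (SE 0.14), all with overlapping groups. Beside Art2b, Clpb, a mitochondrial chaperone, had -0.01 (SE 0.12), and Pde2a, near the detection limit, 0.25 (SE 0.39). Neither gene was separated between the groups.

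Total counts were 43346089 to 53630514 per library. Several members are also used by other immune cells, so markers of these were read in the same libraries. The 11 CD8 T cell markers summed to 7202 to 9672 CPM in STAT3- CM and 10140 to 11411 CPM in STAT3+ CM, mostly Gzmb. Only Gzmb had groups that did not overlap (means of 5111 CPM in STAT3- CM and 6857 CPM in STAT3+ CM). The other markers of this list overlapped, such as Cd8a (847 and 908 CPM). Of the 11 log2 fold changes 10 were positive, with Cd5 negative (-0.12, SE 0.18). Of 14 macrophage and microglia markers 5 had a row, with a sum of 3.96 to 10.8 CPM in STAT3- CM and 4.13 to 6.01 CPM in STAT3+ CM. Of 7 CD4 and regulatory T cell markers 6 had a row. Their sum was 21.8, 21.9 and 63.2 CPM in STAT3- CM and 41.4, 22.1 and 32.1 CPM in STAT3+ CM. It was highest in the libraries with the most Cd38, and in each library it was mostly Ikzf2 and Zbtb7b. Cd4 itself stood at only 0.660 to 1.62 CPM over all 6, also highest in those libraries. The regulatory factor Foxp3 stood at 0.939 to 2.73 CPM. Cd40lg was highest (2.01 CPM) in STAT3- CM replicate 1, the library with the least Cd38. Of 14 dendritic cell markers 8 had a row. Their sum was lower in STAT3+ CM (95.8 to 120 CPM) than in STAT3- CM (133 to 187 CPM). It was mostly Cd74, whose mean was 38.9 CPM with STAT3+ CM against 74.7, and Batf3, at 42.4 against 46.8 with overlapping libraries. Zbtb46, H2-Aa and H2-Eb1 were lower without overlap, as was Cd74. Itgax (0.920 against 0.955 CPM) and Ciita overlapped, and H2-Ab1 was the 1 gene with a positive log2 fold change (0.13, SE 0.22). The part of other cells in the members' values was not tested, and in bulk RNA fewer cells of a type and less RNA per cell cannot be told apart.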

How the data were processed

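Polyadenylated RNA of 6 libraries was measured. The authors deposited unnormalized read counts, 1 whole number per gene and library. Per the submitters' processing notes, Cufflinks 2.2.1, SAMtools 0.1.19, Bowtie 1.0.0, TopHat2 2.0.10 and FastQC were used with GRCm39. How reads were counted, with which annotation and strand setting, is, in the sources used here, not given. The lowest gene total was 40, so scarcer genes had no row. Groups and replicate numbers came from the labels' titles.

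Counts were filtered with filterByExpr, scaled by TMM and fitted over all 14319 genes with edgeR 4.0.16 (R 4.3.3) with the quasi-likelihood test in its robust form; p-values were adjusted by Benjamini-Hochberg and called at 0.05. Each SE was obtained by dividing the size of the log2 fold change by the square root of its F. Log2 CPM for spread, components and patterns used a prior count of 2. DESeq2 1.42.0 and limma 3.58.1 were alternatives, and the fits were tested on simulated data. Of the tested genes, 13943 had a single GENCODE M21 (GRCm38) entry for exon length. Promoter windows are RefSeq's, without the 50 bases after the start; Adora2a had no entry there. Members were named as given; from each list the 3 tested genes with the smallest p were named, with receptors, Art2a, Bst1 and Ada, the nearest patterns (mean of at least 1 CPM, no predicted names) and chromosomal neighbours. The members and lists were chosen with earlier results of these data known. Art2a and Phox2a, a neighbour of Art2b, were not analysed here, and 1 gene that the rule names is not reported here.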

Additional observations from a re-analysis of the deposited data

How the results depend on the processing

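Over all genes edgeR called 0; DESeq2 called 48, limma-voom with sample quality weights 16, and leaving out 1 library in turn gave 0 to 18 calls (18 without STAT3- CM replicate 3, 1 without STAT3- CM replicate 1). Leaving out both STAT3+ CM replicate 1 and STAT3- CM replicate 3, an alternative added after seeing the data, gave 10. Of the other pathway genes 0 were called under each of the 17 alternatives. The log2 fold change of P2rx7 ran from 1.04 to 1.59 and that of Art2b from 0.60 to 1.11 over the 17, both positive in each. Both genes were chosen for being higher in this contrast and their groups do not overlap, so nothing is read from that constant sign. The log2 fold changes of Cd38 (0.10 to 1.03), Nt5e (0.19 to 0.44) and Panx1 (0.04 to 0.18) also stayed positive. Entpd1 ran from -0.76 to 0.47, P2rx4 from -0.02 to 0.14 and Adora2a from -0.22 to 0.11, so their signs rest on the libraries and settings used. Scaling by library totals, RLE or upper quartile kept P2rx7 between 1.33 and 1.39.

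With the replicate number as a block edgeR called 0 genes over the whole table and 0 pathway genes. With the block the SE was 0.16 for Art2b and 0.27 for Entpd1, against 0.22 and 0.44 without it. For P2rx4 it was 0.16 either way. After each group's mean was removed, equal numbers correlated across genes at -0.261, 0.281 and 0.182, and unequal numbers at -0.495 to 0.423. With 3 libraries per group, these values cannot tell whether equal numbers share a mouse or culture. P2rx7 rests on 48 to 192 reads per library, and genes near the detection limit, such as P2rx3 and P2rx5, on fewer, so differences in them were poorly resolved at this depth.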
